A study of Rattus norvegicus with 48 samples.

Results

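The salt response of the kidney was examined in Dahl salt-sensitive rats in which marinobufagenin had been targeted with an antibody, by setting 6 kidneys of animals on 8% NaCl against 6 kidneys of animals on 0.1% NaCl. These 12 arrays were taken by their group labels from 48 arrays in all, which cover the kidney and the left ventricle of 24 animals. Each array was a single-colour Illumina bead array hybridised with cRNA made from the total RNA of 1 tissue of 1 animal. All animals were male rats of the inbred strain SS/JrHsd, 16 weeks old when the tissue was taken.

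The first group (high-salt antibody kidneys, 6 arrays) came from rats on 8% NaCl given an anti-marinobufagenin monoclonal antibody at 50 µg per kg, injected into the peritoneum on 1 occasion. The second (low-salt antibody kidneys, 6 arrays) received the same antibody and dose on 0.1% NaCl. The comparison groups received 50 µg per kg of a mouse isotype IgG1 in place of that antibody, on 8% NaCl (high-salt IgG kidneys, 6 arrays) or on 0.1% NaCl (low-salt IgG kidneys, 6 arrays). Every animal therefore carried an injected mouse IgG, and no uninjected animals were analysed here. The labels place the start of the diets at 6 weeks of age, their length at 8 weeks and the injection at week 7 and 15 weeks of age, which cannot all hold, so the time on diet is uncertain. They name whole kidney without cortex or medulla, and more animals per group than were arrayed.

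Marinobufagenin is a steroid that inhibits the Na/K-ATPase, the pump that drives sodium reabsorption along the nephron, and it is known to rise with salt loading in Dahl salt-sensitive rats. The proximal tubule reabsorbs most of the filtered sodium, bicarbonate, glucose, phosphate and amino acids, and it also makes glucose and serine. The distal nephron adjusts the last part of sodium excretion under aldosterone, through the epithelial sodium channel. Salt-loaded Dahl rats are known for tubular injury, inflammation and interstitial fibrosis. The question asked of these arrays was which salt response remains when marinobufagenin is neutralised.

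Detection, the number of probes with a detection p below 0.05, ranged from 10409 to 11084 probes in high-salt antibody kidneys and from 10077 to 10925 in low-salt antibody kidneys, with a mean difference of 342.7 that did not pass an exact two-sided permutation test (p = 0.0671, adjusted p = 0.106 over 2 array measures). The brightness of the upper end of the arrays, the log2 95th percentile of intensity, was 11.43 to 12.17 on high salt and 11.19 to 12.03 on low salt (difference 0.317, exact permutation p = 0.106). All 8 measured proximal tubule markers and all 4 of the thick ascending limb were detected on all 12 arrays. The ventricular myocyte genes Myh6, Myh7, Nppb and Tnni3 were detected on none. Correlations between arrays of a group ranged from 0.972 to 0.991 in high-salt and from 0.977 to 0.990 in low-salt antibody kidneys.

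Of these 12 arrays, 3 stood apart in ways that touch the results below. High-salt antibody kidney 1 carried transcripts of adrenal cortex, the steroid-making tissue that lies on the kidney: its summed adrenal marker intensity was 2903, against 659 to 788 in the other high-salt antibody kidneys and 474 to 744 in low-salt antibody kidneys. Star, Cyp11a1, Cyp11b1, Cyp21a1 and Hsd3b1, which act in cortical steroid synthesis, were each higher in it than in all the others, while Cyp17a1 and the aldosterone synthase gene Cyp11b2 were not. High-salt antibody kidney 6 and low-salt antibody kidney 2 lay nearer to the opposite diet than the rest of their groups for the genes that fell. Their part in the salt response was not tested beyond leaving each array out. Among the IgG kidneys, high-salt kidney 1 and low-salt kidney 2 stood apart, in groups whose correlations went down to 0.951 and 0.941.

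After quantile normalization more probes fell than rose on high salt in antibody-treated kidneys, a split that turned round under median scaling. Among probes with a gene name, the largest falls were in the sodium bicarbonate cotransporter Slc4a4, at 4.85-fold lower, the lactate transporter Slc5a12, the secreted phosphoprotein Spp2, the serine synthesis enzyme Phgdh and the serum amyloid P component Apcs. The largest rises with a gene name were in Il24, Reg3g, Mcoln3, Fgb and Grem1, of which the 4 detected in low-salt antibody kidneys were 2.97- to 3.30-fold higher. The largest of these folds was that of Reg3g, which only 2 of 6 low-salt antibody kidneys detected, and its size depended on the background correction. By limma, 212 of 11534 tested probes passed an adjusted p of 0.05 (1.84%). Of these, 72 probes were higher on high salt (0.624%) and 140 were lower (1.21%), and 166 of the 212 carried a gene name. Over 2-fold were 18 of the higher and 44 of the lower probes, and 1847 probes had an unadjusted p below 0.05. The values of the 2 groups did not overlap for 263 probes (2.28%), 76 of them among the 212. In whole tissue, fewer cells of a type and less RNA per cell cannot be told apart.

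The count rested on few animals. Leaving out 1 array gave 94, 115, 104, 51 and 42 probes without high-salt antibody kidneys 1, 2, 3, 4 and 5, and 57, 57, 72 and 68 without low-salt antibody kidneys 3, 4, 5 and 6. It gave 425 without high-salt antibody kidney 6, 386 without low-salt antibody kidney 1 and 482 without low-salt IgG kidney 2, and 776 without that kidney and high-salt IgG kidney 1 together. These fits used the same normalized values and the same probes, so that an IgG kidney entered them only through the spread. The split by direction also depended on scaling. After scaling arrays to their medians in place of quantile normalization, the median of all tested probes moved to 0.19 (log2), against 0.01 in the fit reported here, and 294 probes were higher and 18 lower. The authors' within-array scores gave 162 higher and 156 lower.

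Among the transporters, Slc4a4, which carries bicarbonate out of proximal tubule cells with sodium, had normalized log2 intensities of 8.72 (lowest), 9.50 (median) and 10.89 (highest) in high-salt antibody kidneys, against 11.20, 12.08 and 12.17 in low-salt antibody kidneys. The groups did not overlap. Its log2 difference was -2.28 ± 0.29 (SE, adjusted p = 0.000508, limma), the smallest p of any probe. High-salt IgG kidneys had a median of 11.66 and low-salt IgG kidneys one of 11.99, with all 12 of those arrays above every high-salt antibody kidney.

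Slc5a12, a lactate transporter of the proximal brush border, was at 6.17, 8.00 and 10.28 (lowest, median, highest) on high salt and at 8.55, 10.41 and 10.49 on low salt. It fell by 2.04 on the log2 scale (SE 0.46, adjusted p = 0.0239). The ranges overlapped, while the high-salt median lay below every low-salt value. Slc7a7, the light chain of the basolateral exporter of cationic amino acids, was at 9.20, 10.34 and 12.15 on high salt and at 11.32, 12.36 and 12.64 on low salt, with the same kind of overlap (log2 difference -1.71 ± 0.34, adjusted p = 0.0149).

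Of the other sodium-coupled and organic ion carriers of the proximal tubule, 3 that moved the same way were singled out after their values were seen. Not all carriers did so. Slc22a13, Slc23a3 and Slc22a2 had higher means on high salt under antibody without being called (log2 differences 0.86, 0.58 and 0.30). Slc5a2, the glucose cotransporter SGLT2, had 8.92, 10.31 and 11.90 on high salt and 10.93, 11.96 and 12.12 on low salt (log2 difference -1.33 ± 0.32, adjusted p = 0.0303). Slc34a3, a sodium phosphate cotransporter, had 9.78, 10.86 and 12.24 against 11.45, 12.35 and 12.40 on low salt (-1.18 ± 0.28, adjusted p = 0.0290). Slc22a8, the organic anion transporter OAT3, had 9.22, 10.06 and 11.54 on high salt and 11.03, 11.73 and 12.07 on low salt (-1.42 ± 0.30, adjusted p = 0.0188). In each of the 3 the highest high-salt kidney overlapped the low-salt range while the median lay below all low-salt values. Of 218 tested probes with a solute carrier symbol, 14 fell and 2 rose under antibody, while 29 fell and 9 rose under control IgG, with medians of -0.08 and -0.09 (log2). Under antibody these are 6.42% lower and 0.917% higher, against 1.21% and 0.624% of all tested probes. Under IgG they are 13.3% lower and 4.13% higher, against 7.3% and 6.74% of all.

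Among the metabolic enzymes, G6pc1, the glucose-6-phosphatase that releases glucose from proximal tubule cells, was at 10.93, 11.73 and 13.11 on high salt and at 12.48, 13.64 and 14.06 on low salt. The highest high-salt kidney reached into the low-salt range, and the difference was -1.65 ± 0.27 (log2, adjusted p = 0.00511). Slc37a4, which brings the substrate of that enzyme into the endoplasmic reticulum, fell by 0.53 (SE 0.13, adjusted p = 0.0353). It was also called lower under control IgG (-0.45, adjusted p = 0.0247). Pck1, the gluconeogenic carboxykinase, fell by 0.62 (SE 0.16, adjusted p = 0.0427).

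Phgdh, the first enzyme of serine synthesis, had log2 intensities of 7.58, 8.74 and 10.31 on high salt, against 10.10, 10.83 and 11.08 on low salt. The ranges overlapped at their ends, and the difference was -1.83 ± 0.29 (adjusted p = 0.00511). Psph, which completes that synthesis, fell by 0.83 (SE 0.16, adjusted p = 0.0144). Gldc, a subunit of the glycine cleavage system, was at 6.78, 7.79 and 10.36 on high salt and at 8.88, 9.97 and 10.16 on low salt (-1.53 ± 0.40, adjusted p = 0.0488), and its highest high-salt value lay above all low-salt values. Amt, another subunit of it, fell by 0.63 (SE 0.15, adjusted p = 0.0255), and Bhmt, which methylates homocysteine, fell by 0.77 (SE 0.20, adjusted p = 0.0463). Slc37a4, Psph, Amt and Bhmt were singled out after their values were seen.

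The other 6 of the 12 largest named falls were Spp2, a secreted phosphoprotein, Apcs, the serum amyloid P component, Fam151a, the monoamine oxidase Maob, the steroid dehydrogenase Hsd17b2 and the alcohol dehydrogenase Adh1c. Their log2 differences ranged from -1.91 for Spp2 to -1.57 for Adh1c, with adjusted p from 0.00898 to 0.0323. Maob was detected on 3 of the high-salt and all 6 low-salt antibody kidneys, and Hsd17b2 on 5 and 6. Adh1c was at 9.19, 10.03 and 11.28 on high salt and at 10.72, 12.01 and 12.15 on low salt under antibody, and at 11.05, 11.61 and 11.65 in high-salt and 10.44, 11.14 and 11.51 in low-salt IgG kidneys. It was thus lower on high salt under antibody and had a higher median on high salt under IgG.

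Several smaller falls separated the diets more cleanly, and they were also singled out after their values were seen. Mlph, an adaptor in organelle transport, was at 6.09, 6.96 and 7.46 on high salt and at 7.75, 8.07 and 8.38 on low salt (-1.24 ± 0.22, adjusted p = 0.00898). Dusp3, a protein phosphatase, was at 9.63, 10.03 and 10.35 on high salt and at 10.52, 10.94 and 11.07 on low salt (-0.92 ± 0.17, adjusted p = 0.00993). Errfi1, an inhibitor of the EGF receptor, was at 10.94, 11.30 and 11.66 on high salt and at 11.72, 12.34 and 12.97 on low salt (-0.96 ± 0.23, adjusted p = 0.0303). None of the 3 overlapped between the diets. Tcn2, which carries vitamin B12 and is taken up by the proximal tubule, fell by 0.91 (SE 0.15, adjusted p = 0.00511) with ranges that overlapped at their ends, and its difference under IgG was -0.01.

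Across these 12 largest named falls, high-salt antibody kidney 6 had the highest value of its group for all 12 genes and low-salt antibody kidney 2 the lowest of its group for all 12. Averaged over the 12 genes, kidney 6 lay 0.149 log2 below the low-salt mean, while high-salt antibody kidneys 1 to 5 lay 1.17 to 3.01 below it. Low-salt antibody kidney 2 lay 1.02 below the mean of its group. High-salt IgG kidneys had differences from the low-salt antibody mean of -0.650 to 0.0813. The plot of single genes by array and the heat map show both animals. Without high-salt antibody kidney 6, the log2 difference of Slc4a4 was -2.52, and without high-salt antibody kidney 5 it was -2.09.

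**Figure D1:**
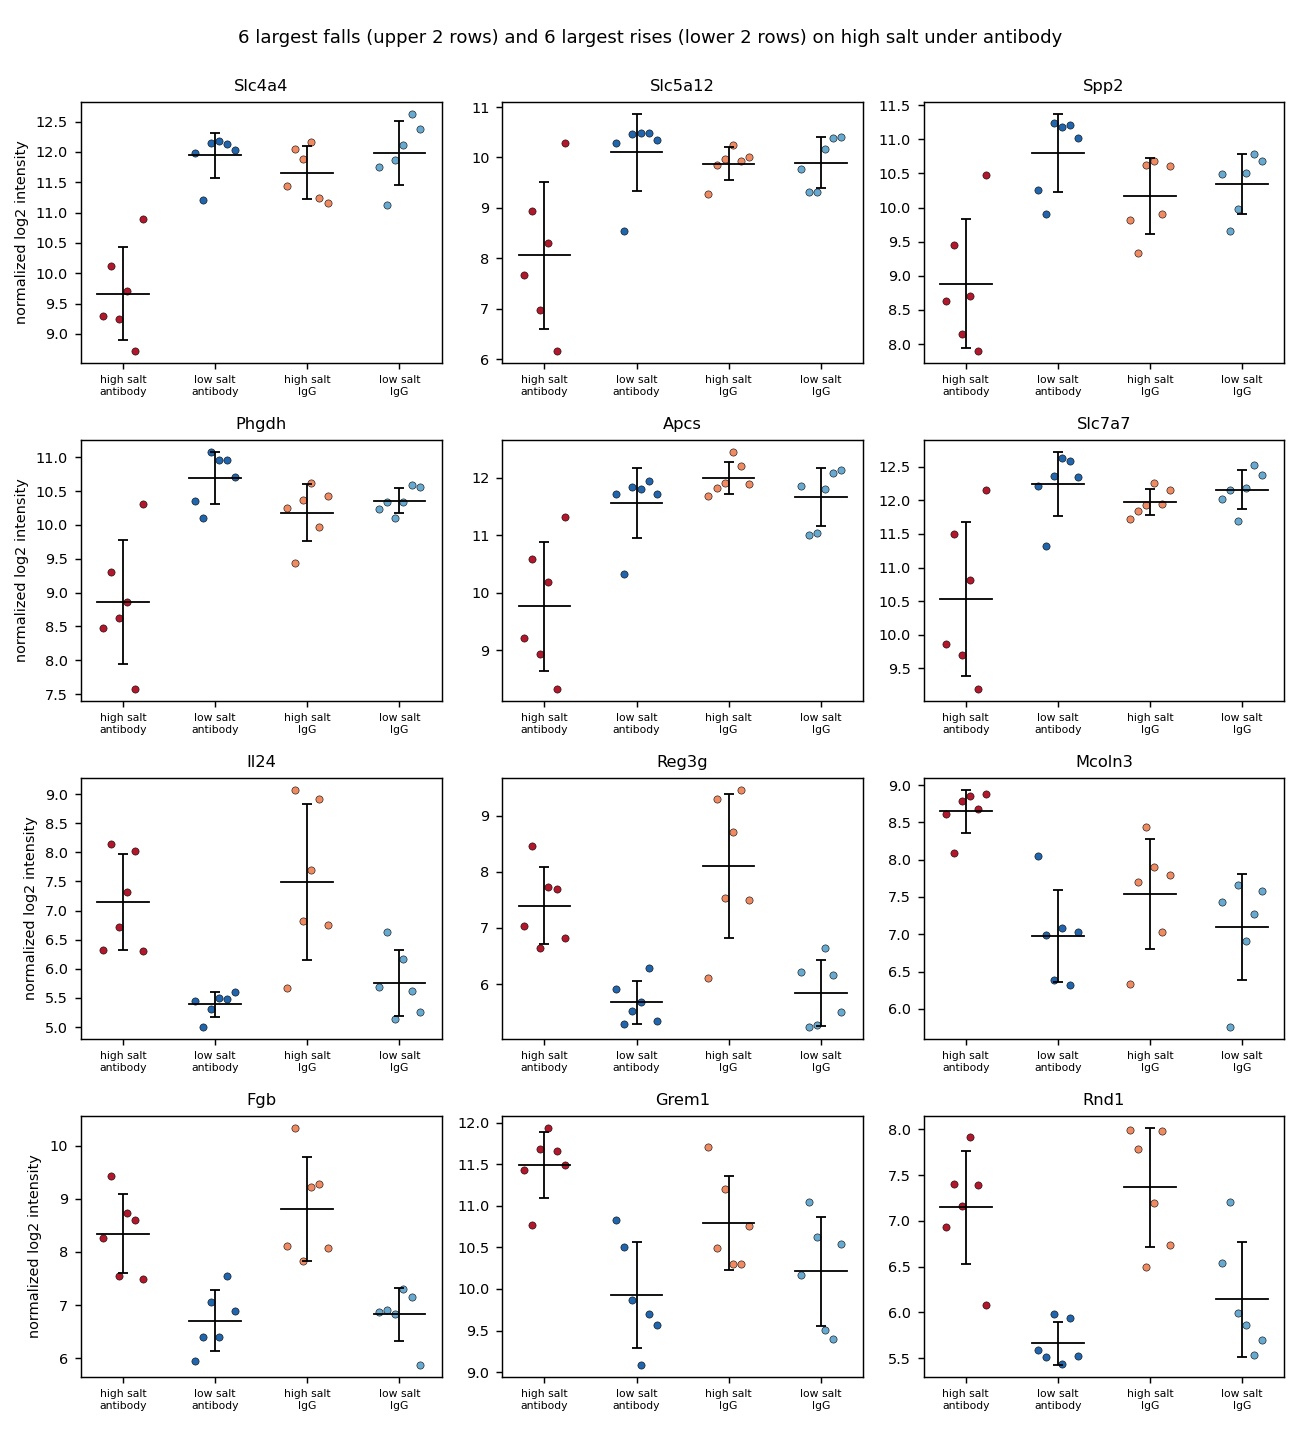
Normalized log2 intensity (vertical axes) of the 6 largest named falls (Slc4a4, Slc5a12, Spp2, Phgdh, Apcs, Slc7a7) and 6 largest named rises (Il24, Reg3g, Mcoln3, Fgb, Grem1, Rnd1) on high salt under antibody, in 6 kidneys per group. Points are kidneys in replicate order, long bars means, and error bars 1 SD; for Slc4a4 the high-salt antibody kidneys lie between 8.72 and 10.89 and the low-salt antibody kidneys between 11.20 and 12.17.

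Among the rises, Il24, a cytokine of the interleukin-10 family, was detected on all 6 high-salt antibody kidneys, at 6.31, 7.02 and 8.15 (lowest, median, highest), and on none of the low-salt antibody kidneys, so that it was at least 2.14-fold higher (adjusted p = 0.0420). Reg3g, an antimicrobial lectin, was at 6.64, 7.37 and 8.46 on high salt and at 5.29, 5.60 and 6.29 on low salt, where 2 of 6 kidneys detected it. The groups did not overlap for either gene, and the log2 difference of Reg3g was 1.72 ± 0.43 (adjusted p = 0.0372). Ccl20, a chemokine that attracts lymphocytes, was 1.31 ± 0.31 higher (log2, adjusted p = 0.0290), and its groups overlapped. It was detected on all 6 high-salt and on 2 of 6 low-salt antibody kidneys.

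Fgb, the beta chain of fibrinogen, was at 7.50, 8.43 and 9.43 in high-salt and at 5.94, 6.65 and 7.54 in low-salt antibody kidneys, a log2 difference of 1.64 ± 0.38 (adjusted p = 0.0271) with ranges that overlapped at their ends. Spp1, osteopontin, was among the brightest probes, at 14.11, 15.28 and 15.61 on high salt and at 13.22, 14.24 and 14.57 on low salt. The ranges overlapped, and it rose by 1.10 on the log2 scale (SE 0.24, adjusted p = 0.0216). Tnfrsf12a, the receptor of the cytokine TWEAK, lay between 9.27 and 10.82 on high salt and between 8.82 and 9.35 on low salt (2.29-fold higher, adjusted p = 0.0168), and Cdk1, the mitotic kinase, rose by 1.18 on the log2 scale (SE 0.27, adjusted p = 0.0255) with no overlap. Rnd1 was detected on all high-salt and no low-salt antibody kidneys and was at least 2.15-fold higher (adjusted p = 0.0149).

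Mcoln3, a cation channel of endosomes and lysosomes, had log2 intensities of 8.09, 8.73 and 8.88 in high-salt antibody kidneys and of 6.32, 7.01 and 8.05 in low-salt antibody kidneys. All high-salt values lay above all low-salt values, with a log2 difference of 1.67 ± 0.33 (adjusted p = 0.0144). Grem1, a secreted antagonist of bone morphogenetic proteins, was at 10.77, 11.58 and 11.94 on high salt and at 9.09, 9.79 and 10.83 on low salt (1.57 ± 0.30, adjusted p = 0.0132), where the lowest high-salt value lay just below the highest low-salt one. Smoc2, a matricellular protein, rose by 1.33 (SE 0.32, adjusted p = 0.0298), and Gcm1, a transcription factor known from the placenta, by 1.06 (SE 0.25, adjusted p = 0.0290). Gcm1 was detected on all 6 high-salt and on 3 of 6 low-salt antibody kidneys.

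Smaller rises, likewise singled out after their values were seen, included Aldh1a2, which makes retinoic acid, at 6.38, 6.93 and 7.53 on high salt and at 5.31, 5.96 and 6.35 on low salt (1.03 ± 0.23, adjusted p = 0.0151). Ptges, which makes prostaglandin E2, was at 6.97, 7.20 and 7.67 on high salt and at 6.12, 6.36 and 6.60 on low salt (log2 difference 0.87, adjusted p = 0.0215). The diets did not overlap for either gene. Osmr, the oncostatin M receptor, was at 6.82, 7.28 and 7.85 on high salt and at 6.10, 6.32 and 6.96 on low salt (0.89, adjusted p = 0.0323), with overlapping ends. It was also called higher under control IgG (0.89, adjusted p = 0.00903).

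For the 12 rises, high-salt antibody kidney 6 was the lowest of its group for 6 genes and lay 0.839 log2 above the low-salt mean on average, against 1.15 to 1.85 for high-salt antibody kidneys 1 to 5. Its values were thus between the diets for the rises and beside low salt for the falls. Calls of Mcoln3, Grem1, Rnd1, Tnfrsf12a, Slc4a4, Spp2, Phgdh, Slc7a7, Fam151a, G6pc1 and Adh1c held whichever of the 24 kidney arrays was left out. The call of Apcs was lost only without high-salt antibody kidney 5 (adjusted p = 0.0543). The calls of the remaining 12 named genes were lost in 5 to 18 of the 24 such fits, with adjusted p of up to 0.137 for Gldc, mostly those without a high-salt antibody kidney from 1 to 5 or a low-salt antibody kidney from 3 to 6, and for Il24 and Gldc also without some IgG kidneys.

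**Figure D2:**
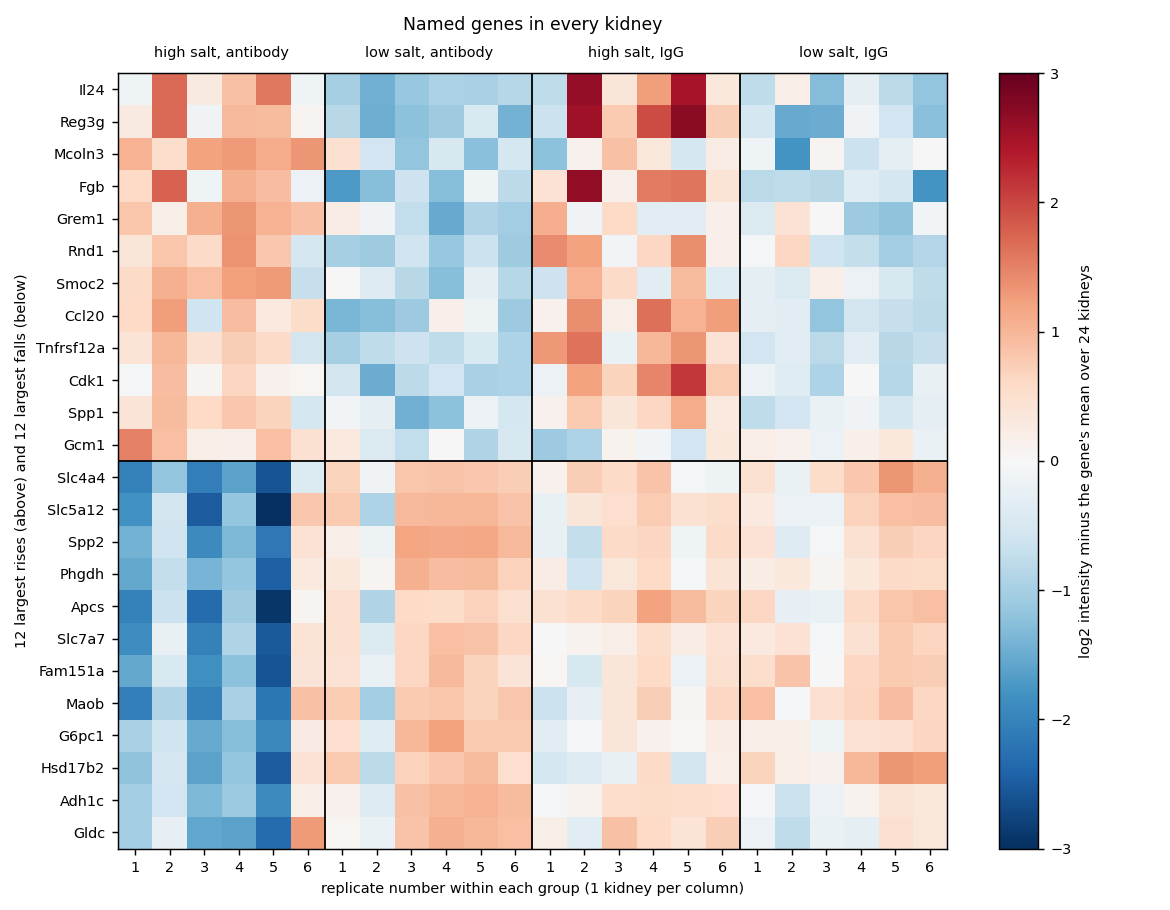
Log2 intensity minus the mean of the gene over 24 kidneys (colour, from -3 to 3) for the 12 largest named rises and the 12 largest named falls on high salt under antibody, 1 column per kidney in 4 groups of 6. The falls are blue in high-salt antibody kidneys 1 to 5 and not in kidney 6. Low-salt antibody kidney 2 also lies below the gene mean for most of the falls, as for Maob (6.47 against 7.53). The IgG kidneys show little colour for the falls, while 8 of the 12 rises are also called under IgG.

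Promoters of genes that moved were read from RefSeq (GRCr8) as 250 bases before and 50 after the annotated start, and 27 of the 31 named genes had a single entry. They were searched on both strands for 4 motifs chosen after the values were seen. GTTAAT, a half-site of the proximal tubule and liver factor HNF1, was held by 7.45% of all 33469 promoters, by 4 of 45 promoters of genes called higher (8.89%) and by 8 of 84 of genes called lower (9.52%). The AP-1 motif TGANTCA was held by 7.33% of all promoters, by 15.6% of those called higher and by 5.95% of those called lower. CAAAGTC, a half-site of HNF4, was in 4.61% of all, in 0 of 45 higher and in 5 of 84 lower promoters. A loose NF-kB form, GGG and CC with any 5 bases between them, was in 47.3% of all, 77.8% of higher and 60.7% of lower promoters. Over the tested genes with a promoter the 4 shares were 4.75%, 5.05%, 3.47% and 64.6%. A match describes these letters only. The promoters of G6pc1 (chr10:86807409-86807708, plus strand), with its fall, and of Fgb (chr2:170700826-170701125, minus strand) and Mcoln3 (chr2:237668756-237669055, plus strand), with their rises, are shown as examples that hold an HNF1 or AP-1 match, in capitals, 5′ to 3′ along the gene. Among the named genes the AP-1 and HNF1 matches stood in promoters of both directions. The AP-1 motif was also in the promoters of Phgdh and Adh1c, which fell, and the HNF1 half-site in those of Fgb and Spp1, which rose. Of the named falls only G6pc1 held the HNF1 half-site, and no promoter of the 27 held the HNF4 half-site. The matches in Fgb do not overlap each other.
G6pc1: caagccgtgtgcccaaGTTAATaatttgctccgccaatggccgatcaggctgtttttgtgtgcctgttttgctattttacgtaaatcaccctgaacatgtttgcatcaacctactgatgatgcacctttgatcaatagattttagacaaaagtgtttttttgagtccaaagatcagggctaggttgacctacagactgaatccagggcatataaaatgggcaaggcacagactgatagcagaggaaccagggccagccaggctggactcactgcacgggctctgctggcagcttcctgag
Fgb: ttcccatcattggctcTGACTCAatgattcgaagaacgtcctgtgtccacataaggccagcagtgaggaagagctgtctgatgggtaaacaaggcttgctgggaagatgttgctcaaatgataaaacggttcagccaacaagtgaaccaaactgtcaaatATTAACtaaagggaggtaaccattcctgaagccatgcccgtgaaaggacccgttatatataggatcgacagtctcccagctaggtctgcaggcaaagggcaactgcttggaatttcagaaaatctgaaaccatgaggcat
Mcoln3: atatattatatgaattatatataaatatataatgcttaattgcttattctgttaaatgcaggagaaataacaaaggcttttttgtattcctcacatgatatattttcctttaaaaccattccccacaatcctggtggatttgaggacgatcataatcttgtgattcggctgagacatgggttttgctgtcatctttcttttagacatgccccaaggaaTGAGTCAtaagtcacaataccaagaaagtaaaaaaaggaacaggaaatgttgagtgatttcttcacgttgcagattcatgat

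In the distal nephron a few genes rose. Scnn1b and Scnn1g, the beta and gamma subunits of the epithelial sodium channel, were higher on high salt, by 0.57 ± 0.14 (adjusted p = 0.0366) and 0.62 ± 0.15 (adjusted p = 0.0331) on the log2 scale. Scnn1b lay between 10.47 and 10.81 on high salt and between 9.91 and 10.26 on low salt, and Scnn1g between 8.05 and 8.78 against 7.63 and 7.99, so that neither overlapped. Hsd11b2, which protects the mineralocorticoid receptor from glucocorticoids in the same cells, was at 10.51 to 11.03 on high salt and 9.85 to 10.24 on low salt (0.65 ± 0.14, adjusted p = 0.0216). The alpha subunit Scnn1a had a log2 difference of 0.05 that was not called. Under control IgG the differences of Scnn1b, Scnn1g and Hsd11b2 were -0.05, 0.05 and 0.19, and none of the 3 was called there, while the test of the difference between the arms missed the threshold for each (adjusted p 0.0899, 0.138 and 0.207).

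Marker levels of the nephron segments were summed on each array, with no test of the sums. The summed intensity of the 8 proximal tubule markers ranged from 77997 to 102276 (median 84715) on high salt and from 95852 to 114339 (median 106391) on low salt under antibody, with overlap. Those of the 4 thick ascending limb markers ranged from 58555 to 77376 on high salt and from 46657 to 68526 on low salt, and they also overlapped. The 12 distal tubule and collecting duct markers, of which Pvalb was detected on none of the 12 arrays, summed to 20946 to 28718 on high salt and 15489 to 20202 on low salt, with no overlap. Of the 11 tested, 9 had higher means on high salt and 2 lower ones (median log2 difference 0.13), and only Scnn1b and Scnn1g were called. Of the 8 proximal tubule markers, 7 had lower means on high salt (median log2 difference -0.38), and Slc5a2 and Slc22a8 were called. Aqp1, the water channel of that segment, was at 13.84 (median) in high-salt and 13.80 in low-salt antibody kidneys. All 4 thick ascending limb markers, Umod, Kcnj1, Cldn16 and Egf, had higher means on high salt, with none called by limma and 2 at an unadjusted p below 0.05. The part of these levels in the falls and rises was not tested.

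**Figure D3:**
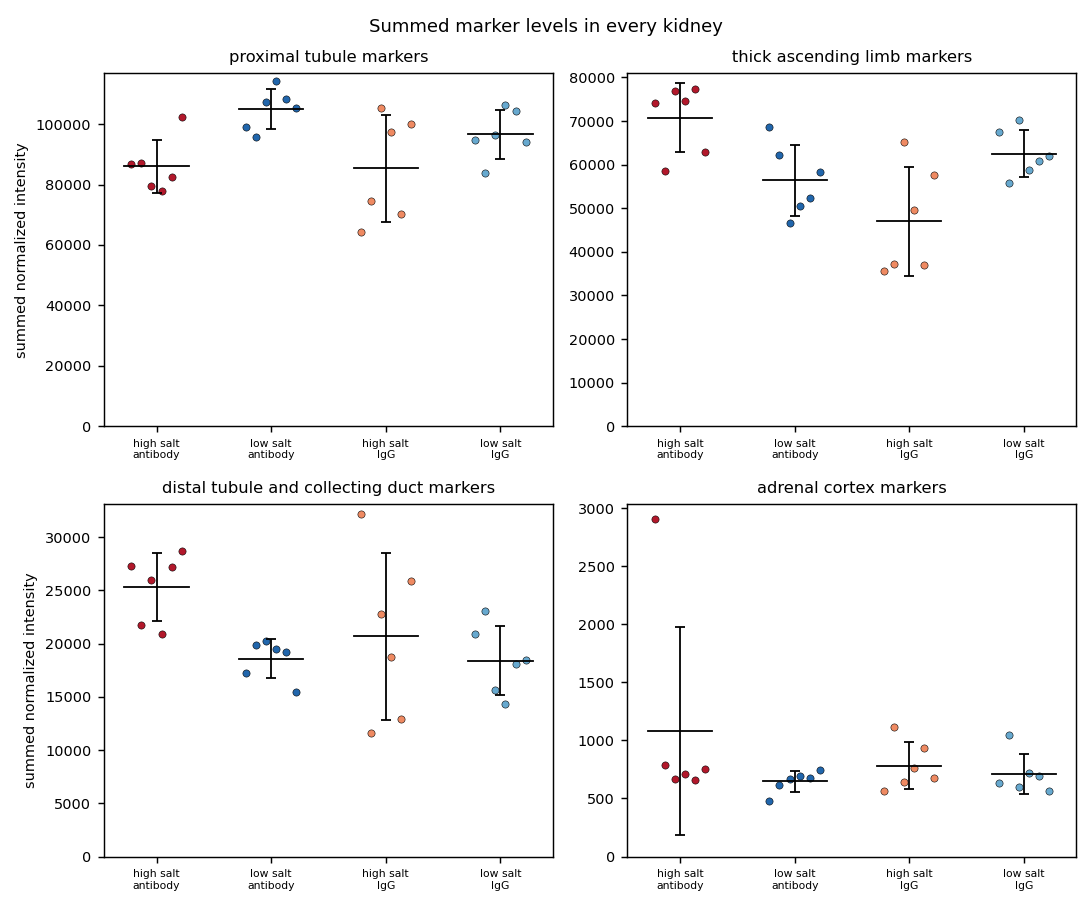
Summed normalized intensity of 4 marker lists in 6 kidneys per group, with means (long bars) and 1 SD (error bars). Distal tubule and collecting duct markers do not overlap between high-salt and low-salt antibody kidneys, and high-salt antibody kidney 1 stands apart in adrenal cortex markers, at 2903.

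Gene lists chosen for this tissue are given by counts and medians, beside the background of 0.624% higher and 1.21% lower among all tested probes and a median of 0.01 (log2). By limma, 1847 of all 11534 tested probes had an unadjusted p below 0.05 under antibody, 892 higher and 955 lower. Such a p was held by 3430 under control IgG and by 2238 for the difference between the arms. Of 28 tested genes of the extracellular matrix and its remodelling, limma called only Spp1 higher under antibody and none lower, with a list median of 0.27. At an unadjusted p below 0.05 were 9 of the 28, all higher, and 22 of the 28 had higher means on high salt. Under control IgG 16 of the same 28 genes rose, with a median of 0.72, where 6.74% of all probes were higher and 7.3% lower. Col3a1, a fibrillar collagen, was at 8.37, 8.84 and 9.61 in high-salt and at 8.27, 8.56 and 9.09 in low-salt antibody kidneys, a log2 difference of 0.33 (adjusted p = 0.487), against 1.49 under IgG (adjusted p = 0.000743). Timp1, an inhibitor of metalloproteinases, differed by 0.71 under antibody (adjusted p = 0.193) and by 2.02 under IgG (adjusted p = 0.000553). The difference between the arms was not called for Col3a1 (adjusted p = 0.0597) or Timp1 (adjusted p = 0.0726).

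Of that list, limma called Postn and Timp2 for the difference between the arms. How far these 2 calls rest on single arrays was not examined. Timp2, another inhibitor of metalloproteinases, had a log2 salt difference of -0.27 under antibody and 0.84 under IgG (difference -1.11, adjusted p = 0.0151). Postn, periostin, was detected on 1 of 6 high-salt antibody kidneys, so its change cannot be sized there (adjusted p of the difference 0.0403). None of 14 genes of TGF-beta signalling was called under antibody by limma, with 4 at an unadjusted p below 0.05, all higher. Under IgG 3 were called, 2 higher and 1 lower. By limma none of the 14 was called for the difference between the arms (5 at an unadjusted p below 0.05, smallest adjusted p 0.0841). Tgfb1, the ligand most tied to fibrosis, was at 6.93, 7.46 and 8.63 in high-salt and 7.18, 7.85 and 8.06 in low-salt antibody kidneys (-0.13, adjusted p = 0.866), against a log2 difference of 0.95 under IgG (adjusted p = 0.0202), and the difference between the arms had an adjusted p of 0.114. Tgfb2 differed by 0.61 under antibody, with an adjusted p of 0.0539, and it was called when any of high-salt antibody kidney 6, low-salt antibody kidney 1, high-salt IgG kidneys 1, 2 or 5 or low-salt IgG kidney 2 was left out, as 1 gene of the list then was.

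Tubular injury and regeneration genes were higher in 14 of 15 cases by mean, with a median of 0.49 under antibody and 0.87 under IgG. Of them 3 passed under antibody, Spp1, the intermediate filament Vim (11.75 to 12.48 on high salt, 11.39 to 11.66 on low salt, 0.60 ± 0.14) and Anxa1, a phospholipid-binding anti-inflammatory protein (0.92 ± 0.20). Under antibody 7 of the 15 were at an unadjusted p below 0.05 by limma, all higher. Under IgG 11 of the 15 passed, and none of the 15 was called by limma for the difference between the arms (7 at an unadjusted p below 0.05). Lcn2, the injury marker NGAL, was at 8.82, 11.15 and 11.57 on high salt and at 8.56, 9.32 and 9.85 on low salt under antibody, a log2 difference of 1.53 that was not called (adjusted p = 0.106), against 1.81 under IgG (adjusted p = 0.0162).

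Among 25 immune and inflammatory genes Ccl20 alone was called higher under antibody and 7 were under IgG (medians 0.13 and 0.50). Of 9 cell cycle genes, Cdk1 and the cyclin Ccnb2 were called higher under antibody and 7 under IgG (medians 0.40 and 0.74). At an unadjusted p below 0.05 under antibody, by limma, were 5 immune and 4 cell cycle genes, all higher. By limma no gene of either list was called for the difference between the arms, with 2 immune and 3 cell cycle genes at an unadjusted p below 0.05. Of 23 transport genes Scnn1b and Scnn1g rose, and Slc4a4, Slc5a2 and Slc22a8 fell, while 1, the apical exchanger Slc9a3, fell under IgG. Of 19 genes of oxidative phosphorylation and proximal metabolism, Pck1, G6pc1 and the urea and arginine enzyme Ass1 fell, and the list's respiratory chain members were not among them. Of all 65 tested probes with a respiratory chain or ATP synthase symbol, 1 fell under antibody and 9 under IgG, and none rose. The fall under antibody was in Uqcrb, a subunit of complex III singled out after its values were seen, which fell in both arms (-0.35 under antibody, adjusted p = 0.0246, and -0.35 under IgG, adjusted p = 0.00664). Of 22 genes of oxidative and heat stress, Nox4, a NADPH oxidase abundant in kidney, fell in both arms (-1.31 and -1.09). In the renin-angiotensin and vasoactive list Hsd11b2 was the only call of 15, and limma called none of 8 sterol synthesis or 10 immediate early genes (2 and 1 at an unadjusted p below 0.05). No marker, of 41 tested, of podocytes, endothelium, fibroblasts and smooth muscle, macrophages, lymphocytes, blood, adipose tissue, urothelium, cardiac muscle or adrenal cortex was called under antibody by limma (7 at an unadjusted p below 0.05), whereas 4 of 5 fibroblast and smooth muscle markers rose under IgG. By limma none of those 5 was called for the difference between the arms (4 at an unadjusted p below 0.05, smallest adjusted p 0.0597). All 7 markers at an unadjusted p below 0.05 under antibody were higher on high salt, and 2 of them were macrophage and 3 lymphocyte markers. Of all 11534 tested probes 1847 had such a p under antibody by limma, 892 of them higher. By mean, all 4 tested macrophage markers (median 0.42) and 6 of 7 lymphocyte markers (median 0.32) were higher on high salt under antibody. Summed macrophage markers were at 3802 to 6815 on high salt and 3486 to 5326 on low salt, where Cd163 was detected on none of the 12 arrays, and summed lymphocyte markers at 722 to 1283 and 666 to 944, where Cd8b and Ms4a1 were detected on none. Their part in the rises was not tested.

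These counts were small and moved with single arrays, named here by their number (H for high-salt and L for low-salt antibody kidneys). The 1 matrix gene became 0 without H2, H4, H5, L3 or L4 and 3 without H6. The 3 injury genes became 0 without H4, H5, L3 or L4, 1 without H2, L5 or L6, and 5 without H6. The 1 immune gene became 0 without H1, H2, H4, H5, L3 or L6 and 2 without H6. The 2 cell cycle genes became 0 without H2, H4, H5, L3, L4, L5 or L6, and 1 without H1, H3, L1, L2 or 8 of the 12 IgG kidneys.

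Of the falls, the 3 transport genes became 1 without H4, H5, L3 or L4, and the 3 metabolic genes became 1 without H1, H3, H4, H5, L3, L4 or L5. The 2 proximal tubule markers became 0 without H4, H5, L3 or L4 and 1 without H1, H3, L5 or L6. The 2 rises of Scnn1b and Scnn1g became 0 without H1, H3, H4, H5 or any of L2 to L6 and 1 without H2. Without H1, the kidney with adrenal transcripts, 1 matrix and 3 injury genes were higher. Under median scaling the medians of the transport list and of the metabolic list turned positive (0.22 and 0.07), and that of the proximal tubule markers stayed negative (-0.28) with none called, relative to 0.19 for all probes.

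**Figure D4:**
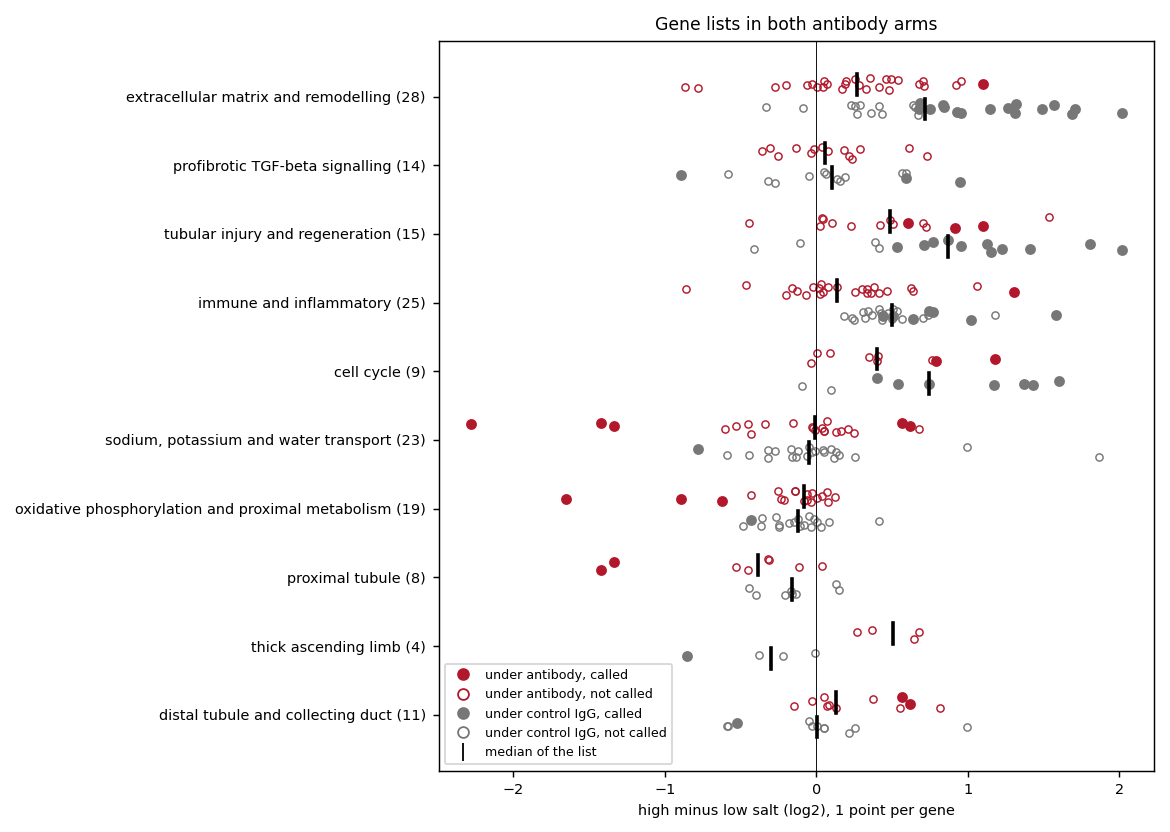
Log2 difference, high minus low salt, of every tested gene (points) of 7 pathway lists and 3 nephron marker lists under antibody (red) and under control IgG (grey), with list medians as black bars and the number of genes in brackets. Filled points passed an adjusted p of 0.05: for the extracellular matrix 1 of 28 did under antibody and 16 of 28 under IgG.

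The salt response under control IgG was set beside that under antibody in the same fit. It comprised 1619 called probes, and the arms share no arrays. Of the 72 probes higher under antibody, 32 were also higher under IgG. They are 44.4% of the 72, where 6.74% of all tested probes were higher under IgG. They are 4.12% of the 777 higher under IgG, where 0.624% of all tested probes were higher under antibody. Of the 140 lower under antibody, 18 were lower under IgG too. They are 12.9% of the 140, where 7.3% of all tested probes were lower under IgG. They are 2.14% of the 842 lower under IgG, where 1.21% of all tested probes were lower under antibody. Among the named rises, Il24, Reg3g, Fgb, Rnd1, Ccl20, Tnfrsf12a, Cdk1 and Spp1 were called in both arms, with IgG differences from 0.95 to 2.26 (log2). None of the 12 named falls was called under IgG by limma, where their differences lay between -0.92 and 0.51. At an unadjusted p below 0.05 there was 1 of the 12, and 3430 of all 11534 tested probes.

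Read in the antibody arm, the 777 probes higher under IgG had a median log2 difference of 0.13, against 0.63 in their own arm, and 574 of them were positive. The 842 lower under IgG had a median of -0.02, against -0.52 in their own arm, and 456 were negative. Read the other way, the 72 probes higher under antibody had a median of 0.49 under IgG and 58 were positive, and the 140 lower had a median of -0.19 and 117 were negative. Among all tested probes 6060 of 11534 were positive under antibody (median 0.01) and 6122 were negative under IgG (median -0.02). Because each set was chosen for passing the test in its own arm, a smaller median in the other arm is in part fixed by that choice. Over all 11534 probes Pearson's r between the responses was 0.168, a description across probes that are not independent. The IgG-lower median turned to 0.18 under median scaling, where the median of all probes was 0.19.

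The difference between the 2 salt responses was itself called for 128 probes (1.11%), with 85 higher (0.737%) and 43 lower (0.373%) under antibody than under IgG. Of the 85, 75 had fallen under IgG and 6 had risen under antibody, and of the 43, 27 had risen under IgG and 12 had fallen under antibody. Opposite signs in the arms were seen for 83 of the 85 and 37 of the 43, which the choice of probes with a large difference favours, and for 44.7% of all tested probes. The count was 24 to 364 when 1 array was left out, and it stayed within 1.5 times only without high-salt antibody kidney 6, low-salt antibody kidney 2, high-salt IgG kidneys 1 or 6 or low-salt IgG kidney 3.

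Of the larger falls, 4 were called for this difference. Slc4a4 had a difference between responses of -1.96 ± 0.41 (adjusted p = 0.0289), Adh1c one of -1.94 ± 0.39 (adjusted p = 0.0228), Apcs one of -2.14 ± 0.53 (adjusted p = 0.0468) and Phgdh one of -1.65 ± 0.41 (adjusted p = 0.0495). For the other 8 of the 12 the difference did not pass, with an adjusted p of 0.0895 for Slc5a12, 0.0652 for Spp2, 0.0873 for Slc7a7, 0.0610 for G6pc1, 0.0632 for Gldc, 0.140 for Fam151a, 0.232 for Maob and 0.496 for Hsd17b2, whose difference was -0.67. Of the rises Gcm1 was called, at 1.51 ± 0.35 (adjusted p = 0.0403). Without background correction the difference was 0.60 for Gcm1 and between -1.90 (Apcs) and -1.33 (Phgdh) for the 4 falls. Each of these 5 calls was lost when some single array was left out. When each of the 24 arrays was left out in turn, the call of the difference was lost in 18 fits for Apcs, 16 for Phgdh and 12 for Gcm1, with adjusted p of up to 0.0993. It was lost in 6 for Slc4a4, those without high-salt antibody kidneys 1 or 5, low-salt antibody kidneys 3, 4 or 5 or low-salt IgG kidney 1, and in 3 for Adh1c, those without low-salt antibody kidneys 3, 4 or 5.

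Among the probes higher under antibody than under IgG, Slc22a13, an organic anion transporter, was at 7.07, 7.68 and 8.13 in high-salt antibody kidneys and 5.79, 6.77 and 7.70 in low-salt antibody kidneys. It was at 5.31, 5.67 and 6.90 in high-salt IgG kidneys and 6.43, 7.19 and 7.69 in low-salt IgG kidneys, so the diets were ordered the opposite way in the 2 arms (difference 2.15 ± 0.43, adjusted p = 0.0208). Jag1, a Notch ligand, was at 8.19 to 9.41 in high-salt and 7.88 to 8.29 in low-salt antibody kidneys, and at 7.82 to 8.06 in high-salt and 8.34 to 10.39 in low-salt IgG kidneys, with a difference of 1.69 ± 0.34 (adjusted p = 0.0208). Jag1 did not overlap between the diets under IgG. Eaf2, a transcription elongation factor, differed by 1.62 ± 0.34, Spetex2b by 1.80 ± 0.33 and the glucagon receptor gene Gcgr by 1.59 ± 0.37, where another Gcgr probe gave 1.58 (adjusted p = 0.0495) and the remaining one 0.19 (adjusted p = 0.715). None of these 5 was called for salt under antibody. Leaving out 1 array never ended the call of the difference for Slc22a13, Spetex2b or Jag1, while it did in 5 of 24 fits for Eaf2 and in 15 for Gcgr. Slc22a13 was detected on 3 of 6 high-salt IgG and 5 of 6 low-salt antibody kidneys, and Spetex2b on 4 and 3. Without background correction the differences were smaller, at 0.91 for Slc22a13, 0.70 for Spetex2b, 1.18 for Jag1, 1.03 for Eaf2 and 1.32 for Gcgr. Atp1a4 and Egf were singled out after their values were seen. Atp1a4, an alpha subunit of the Na/K-ATPase known from sperm, differed by 1.42 between the arms (adjusted p = 0.0151), from 0.29 under antibody and -1.13 under IgG, and Egf, made in the thick ascending limb, by 1.22 (adjusted p = 0.0367), from 0.37 and -0.85.

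Lower under antibody than under IgG, besides the falls, were Ccl21, a chemokine of lymphatic vessels, and Steap1, a metalloreductase. Ccl21 was at 6.32 to 8.00 in high-salt and 6.34 to 8.07 in low-salt antibody kidneys, and at 8.09 to 9.51 in high-salt and 6.66 to 7.76 in low-salt IgG kidneys, so that only the IgG groups did not overlap (difference -1.73 ± 0.41, adjusted p = 0.0403). Steap1 differed by -1.66 ± 0.36 (adjusted p = 0.0320), from -0.67 under antibody and 0.99 under IgG. These calls were lost in 15 of the 24 fits without 1 array for Ccl21 and in 9 for Steap1.

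**Figure D5:**
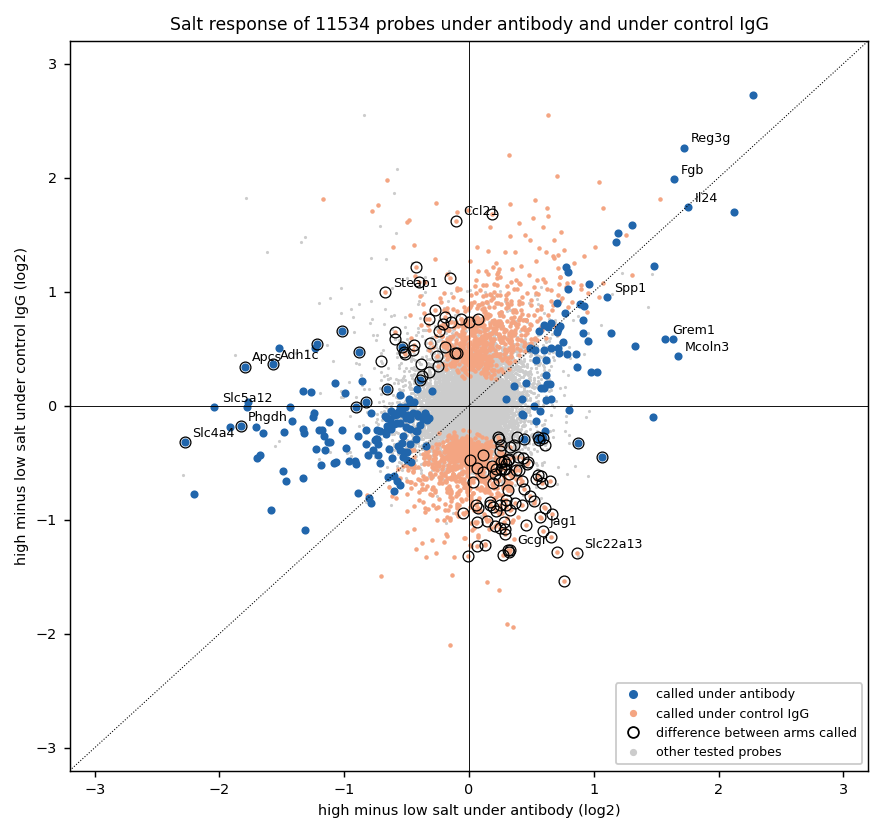
Log2 difference, high minus low salt, under antibody (horizontal) against control IgG (vertical) for 11534 probes, with the dotted line marking equal responses. The 12 largest falls with a gene name lie between -0.92 and 0.51 on the vertical axis, while rises such as Il24, Reg3g and Fgb lie near the dotted line; rings mark the 128 probes whose response differed between the arms.

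In the left ventricle of the same animals, 5977 of 8354 tested probes differed between high and low salt under antibody (71.5%), where high-salt arrays detected 3859 to 5509 probes and low-salt arrays 7475 to 8356. Of those called there, 2270 were higher and 3707 lower, and the median of all tested ventricular probes was -0.31 (log2). A fall there was thus the commoner outcome and does not set a gene apart. The kidney response minus the ventricular response was called for 6499 of 12172 probes (53.4%), and for 284 once the brightness of the arrays was included as a covariate. The values of single genes below are without that covariate. Most probes were called without it, so a call there does not set a gene apart from the other probes. Of the 24 named genes 8 were tested in the ventricle. With the ventricle normalized on its own, Adh1c rose there by 1.94 ± 0.33 (log2, adjusted p = 1.63e-05), opposite to its fall in the kidney. Opposite to their rises in the kidney, Tnfrsf12a fell there by 0.96 (adjusted p = 0.00793), Rnd1 by 0.76 (adjusted p = 0.0132) and Smoc2 by 0.67 (adjusted p = 0.0132). Slc4a4 fell by 0.84 (SE 0.15, adjusted p = 3.46e-05) and Maob by 0.81 (adjusted p = 8.05e-05), as in the kidney, and Reg3g and Spp1 were not called. The tissue difference was taken after normalizing all 48 arrays together, which moved the ventricular salt difference to -1.80 for Slc4a4 and -1.85 for Maob. On that scale it was called for Adh1c (-3.58 ± 0.45, adjusted p = 6.95e-07), Tnfrsf12a (2.70), Rnd1 (2.65), Smoc2 (2.12), Reg3g (1.60) and Spp1 (1.20), and not for Slc4a4 (-0.53 ± 0.43, adjusted p = 0.317) or Maob (0.45, adjusted p = 0.363). With each tissue normalized on its own, an alternative, that of Slc4a4 was called at -1.44 ± 0.34 (adjusted p = 0.000868), that of Maob turned to -0.86 without being called (adjusted p = 0.0757), and the other 6 kept call and direction.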

How the data were processed

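RNA of kidney and left ventricle of 24 rats was measured on 48 bead arrays. Per the labels, T7-amplified cRNA was prepared from total RNA with an oligo-dT primer. The submitters' processing notes list GenomeStudio 2011.1. The deposited intensities of 22523 probes were linear and not normalized between arrays, each with a deposited detection p-value. The deposited score of a probe is the z-score of its log10 intensity within an array, recomputed here to within 0.00649 in kidney. Chips are not stated in the sources used here, and no chip block was fitted.

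Kidney intensities went through neqc (offset 16: normexp with the background inferred from the detection p-values, quantile normalization, log2) in limma 3.58.1 with R 4.3.3. Probes detected (p below 0.05) on 6 or more of the 24 arrays, 11534 in all, were fitted with 4 group means (lmFit, eBayes), and p-values were adjusted by Benjamini-Hochberg over all of them. A call is an adjusted p below 0.05. Contrasts were high minus low salt in each arm and the difference of the arms. Tissues were compared on each animal's kidney minus ventricle value after neqc over 48 arrays. Array measures had exact permutation tests over 924 splits. Where a group had no array detecting a probe, its fold is a lower limit, taken against the higher of its own signal and the lowest detected signal of each array. The platform annotation names 1 gene for 13793 probes and none for 8730, and 147 tested genes had several probes.

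Named genes were the 12 largest rises and 12 largest falls among called probes with a gene and detection on 6 or more of the 12 arrays, the probe with the smallest p per gene, and the 5 largest in each direction of the difference between arms. The groups compared, the lists and this rule were chosen with earlier results of these data known. In simulated arrays for salt under antibody (11534 probes), 83% of 100 changes of 2-fold and 31% of 100 changes of 1.41-fold were recovered, with 10 false calls. The simulated noise was independent between probes and arrays. Kidneys that stand apart over many genes, as seen here, were not simulated, so these shares need not hold for the real arrays. Replicate numbers did not pair the kidneys: deviations of same-numbered high-salt and low-salt antibody kidneys correlated at -0.294 to 0.190. P-values reflect variation among these animals, and the number of arrays limits precision. Alternatives covered background correction, scaling, the authors' scores, the filter, array weights, a variance trend, brightness, a replicate block and the arrays in the fit.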

Additional observations from a re-analysis of the deposited data

Results flagged for a closer look

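A single kidney lay far from the other 5 of its group, with a gap to the nearest of them above Dixon's 95% critical share of the range, in 13 of 112 groups of values examined. Chance alone gives about 1 in 20 groups where these are independent, which these were not, since 6 of the 13 were 1 kidney over genes that moved together. Low-salt antibody kidney 2 was below its group for Slc4a4 (log2 intensity 11.20, others 11.98 to 12.17), Slc5a12 (8.55, others 10.28 to 10.49), Apcs (10.33, others 11.72 to 11.95), Slc7a7 (11.32, others 12.22 to 12.64), Maob (6.47, others 8.20 to 8.36) and Hsd17b2 (7.32, others 8.64 to 9.08). High-salt antibody kidney 2 was low for Mcoln3 (8.09, others 8.61 to 8.88), and high-salt antibody kidney 6 for Smoc2 (8.98, others 10.25 to 10.96). Low-salt antibody kidney 1 detected 10925 probes, others 10077 to 10357. Summed marker intensity was high for adrenal cortex in high-salt antibody kidney 1 (2903, others 659 to 788), fibroblasts and smooth muscle in high-salt antibody kidney 2 (12711, others 7358 to 8996), urothelium in high-salt antibody kidney 3 (330, others 167 to 204) and cardiac muscle in low-salt antibody kidney 3 (602, others 362 to 425). The part of these kidneys in the salt response was not tested beyond leaving each out.

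The salt response differed between the antibody and IgG arms for 128 probes by the test of the difference. On the log2 scale the difference was 1.51 for Gcm1, 2.15 for Slc22a13, 1.80 for Spetex2b, 1.69 for Jag1, 1.62 for Eaf2 and 1.59 for Gcgr. It was -1.96 for Slc4a4, -1.65 for Phgdh, -2.14 for Apcs, -1.94 for Adh1c, -1.73 for Ccl21 and -1.66 for Steap1. Kidney and left ventricle differed in their salt response under antibody for 6499 probes, with the difference in array brightness stated above.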

How the results depend on the processing

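Salt under antibody gave 212 probes. It gave 1868 with array weights, 495 with brightness as a covariate, 776 without high-salt IgG kidney 1 and low-salt IgG kidney 2 together, 337 with the 12 antibody arrays alone and 328 without both antibody kidneys numbered 1, an alternative chosen after seeing the data. Leaving out 1 array gave 42 to 482. Of the 212, 171 kept call and direction without background correction, 122 with the authors' scores and 86 under median scaling, where 5.77% of calls were lower, against 49.1% with the scores and 66.0% in the fit reported. The replicate block gave 232 (191 shared), but the numbers do not pair the animals.

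The difference between arms (128) gave 318 under median scaling (5.97% lower, against 33.6%), 73 with the scores, 57 with no filter, 229 with detection p below 0.01 on all 24 arrays, 1192 with array weights, 27 with the replicate block, 240 with brightness (48.8% lower), 213 without the 2 control kidneys (44.6% lower), 279 without the kidneys numbered 1, and 24 to 364 leaving out 1 array. Salt under IgG (1619) gave 758 under median scaling (39.2% lower), 1741 with the scores (37.5% lower), against 842 of 1619 lower in the fit reported, and 1063 to 1872 leaving out 1 array. The antibody-arm median of IgG-higher probes (0.13) was 0.36 under median scaling and 0.10 to 0.18 leaving out 1 array, and that of IgG-lower probes (-0.02) reversed to 0.18 and was -0.05 to 0.01. The tissue difference (6499) gave 284 with brightness, 1139 with detection p below 0.01 on all 48 arrays and 6052 to 6666 leaving out 1 animal. The cause of these changes was not tested.

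Over 853 refits of the 24 named genes none changed direction and 143 lost the call. Over 347 of the 10 differences between arms none changed direction and 91 lost it. Many of these refits could not change a direction, since altering only the filter or the variance model left the log2 difference as it was. For salt under antibody the same holds for leaving out IgG kidneys. The genes were also chosen for large differences, so the unchanged directions are no independent check. Probes near background limit what can be seen: 9 of the 72 probes higher were undetected in every low-salt antibody kidney. Sizes of dim genes also moved with the background correction. Without it the log2 rise was 0.73 for Reg3g (1.72 in the fit reported), 0.74 for Il24 (1.75) and 0.59 for Rnd1 (1.48). It was 0.56 for Ccl20 (1.31), 0.43 for Gcm1 (1.06) and 0.53 for Cdk1 (1.18). For the brighter Grem1 and Spp1 it was 1.41 (1.57) and 1.11 (1.10).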
